A study of Homo sapiens with 18 samples.

Results

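The retinoid receptors and the proteins that carry retinoids in the cell were followed in foregut endoderm made from human embryonic stem cells. The genes were the retinoic acid receptors RARA, RARB and RARG, the retinoid X receptors RXRA, RXRB and RXRG, the cellular retinoic acid binding proteins CRABP1 and CRABP2, and the retinol transporter STRA6. They were taken from the table by symbol, with no threshold on a measured value, and make up 9 of the 35025 genes in the count table. The low-count filter kept 15531 genes, and 9 of the 9 were among them.

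Retinol bound to its serum carrier enters some cells through STRA6, a membrane protein, and is oxidised inside the cell to retinoic acid (RA). CRABP1 and CRABP2 hold RA in the cytoplasm. CRABP2 is known for passing RA to receptors in the nucleus, and CRABP1 is usually linked to RA turnover. The receptors bind DNA as pairs of a RAR and an RXR, which sit on repeats of a short half-site near target genes. RA binds the RAR of the pair and exchanges corepressors for coactivators. RARB is a textbook direct target with such a repeat in its own promoter. In the embryo, RA patterns the foregut along its length and acts in the formation of lung, heart and pancreas.

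The cells were wild-type H1, an established human embryonic stem cell line and the line used in all 6 groups. Each group held 3 libraries, 18 in all. At day 6 the groups were untreated endoderm and endoderm that had received 2 µM all-trans RA over the preceding 24 h. At day 9 the groups were untreated endoderm, endoderm with the same RA pulse and no further factor, endoderm without RA that had received 2 µM CHIR99021 and 50 ng/mL BMP4 for 72 h, and endoderm with the RA pulse followed by those factors. CHIR99021 inhibits the kinase GSK3 and so activates WNT signalling, and BMP4 is a bone morphogenetic protein. The labels describe the pair, written CB here, as imitating signals that induce respiratory fate. RA was therefore no longer being added when the day 9 groups were taken.

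Expression is given as scaled counts per 1000000 (CPM), with ± giving the standard deviation of 3 libraries. The libraries held 5.79 to 25.37 M counts (M, 1000000). A change was called where the quasi-likelihood test of edgeR gave a Benjamini-Hochberg adjusted p under 0.05 over all tested genes. The labels do not say whether the 3 replicates came from separate cultures, so the p-values describe the spread between libraries, which may be technical. In bulk RNA, a fall in a transcript through fewer cells of a type and a fall through less RNA per cell cannot be told apart.

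Markers were read beside the members. Of 10 endoderm markers, 10 passed the filter. Their summed levels were 806 to 1132 CPM in the untreated groups and 976 to 1202 CPM with CB alone. In the 3 groups given RA they were 1639 to 2290 CPM. Of 10 cardiac and splanchnic mesoderm markers, 9 passed the filter, and their sum was 3311 to 4566 CPM at day 9 after RA alone, against 24.6 to 178 CPM in the other 5 groups. The sum of 12 mesenchyme markers, of which 11 passed, was also highest there, at 2369 to 3579 CPM. It was lowest after RA then CB, at 342 to 386 CPM. A sum follows its most abundant markers. With CB after RA, 3 of the 11 mesenchyme markers rose and 5 fell (median log2 0.03, with 64.4% of all genes called). TBX5 was the 1 cardiac marker at 0, in both untreated groups. The part of such cells in the levels of the members was not tested.

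Untreated and treated libraries also differed in a set of genes that were mostly pseudogenes. Between the 12 treated libraries and 4 of the 6 untreated ones, 63 genes stood 10-fold or more apart, and 60 of these (95.2%) were pseudogenes, against 3.63% of 13718 genes at 2 CPM or more. None of the 9 members was among the 63. A share was scored from the levels of these 63 genes, each relative to its mean where it was higher. By this share, the treated libraries carried 97.96% to 98.6% of the treated kind and the untreated day 9 libraries 0.523% to 1.14%. Untreated day 6 replicates 1, 2 and 3 carried 22.2%, 0.677% and 39.3%. Of all libraries, only untreated day 6 replicates 1 and 3 took no part in choosing the 63 genes. For every other library, a share near either end was set by that choice. RA before CB, CB after RA, and day 9 against day 6 after RA were compared within the treated kind. The other comparisons carry this difference. They were also fitted with the share as a covariate, which within a group varied appreciably only among the untreated day 6 libraries. From the day 9 libraries alone, read kind and treatment against no treatment cannot be told apart.

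Sequence close to the start sites of the members was searched for half-site repeats, apart from any expression value. RefSeq (GRCh38.p14) gave 20 start sites for the 9 genes, and each window from 250 bases before to 50 after a start was searched on both strands. A half-site could read AGGTCA, or GGGTCA with another first base. It could also read AGTTCA. The last form allowed was GGTTCA. The search asked for direct repeats of any of these forms with 1, 2 or 5 bases between them. A repeat with 5 bases between was found in 1 of the 20 windows, that of the RARB start at position 25428263 of chromosome 3. It lay at chr3:25428210-25428226 on the plus strand, from -53 to -37 relative to the start. Of 35116 windows of this length over all genes, 31 (0.0883%) hold such a repeat, while a lone half-site occurs in 38.6%. No repeat with 1 or 2 bases between was found in the 20 windows. The strict form, AGGTCA on both sides of 5 bases, was in none of them, that of RARB included. The 250 bases before the RARB start are shown because they carry the repeat, with its half-sites in capitals, and those before the CRABP1 start for contrast, with no half-site in the window. Both are 5′ to 3′ on the plus strand. They lie directly before the start of the gene as given in the count table, at chr3:25428013-25428262 and chr15:78340103-78340352.
RARB: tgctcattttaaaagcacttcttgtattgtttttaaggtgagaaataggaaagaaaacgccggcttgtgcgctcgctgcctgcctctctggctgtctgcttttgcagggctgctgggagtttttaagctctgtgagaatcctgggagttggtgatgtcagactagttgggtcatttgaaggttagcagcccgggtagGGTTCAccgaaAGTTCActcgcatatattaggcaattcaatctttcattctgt
CRABP1: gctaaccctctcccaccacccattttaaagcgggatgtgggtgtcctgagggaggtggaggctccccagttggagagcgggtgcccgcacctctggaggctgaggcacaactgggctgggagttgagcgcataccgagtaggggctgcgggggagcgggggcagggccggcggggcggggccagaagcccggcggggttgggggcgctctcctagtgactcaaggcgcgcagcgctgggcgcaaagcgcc
The matches describe letters in these windows and no binding was measured. Sequence outside the windows was not searched.

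Between 6 and 8 of the 9 members were called in each of the 7 comparisons of 3 against 3 libraries, beside a background of 42.8% to 65.1% of all tested genes. With RA at day 6, 48.7% of all tested genes were called, 25.3% higher and 23.4% lower, and of the members 4 rose and 2 fell. With RA at day 9 the share was 65.1%, with 32.5% higher and 32.5% lower, and 3 members rose and 4 fell. With CB and no RA it was 42.8%, with 21% higher and 21.8% lower, and 2 members rose and 5 fell. With RA before CB it was 43.3%, with 21.2% higher and 22.1% lower, and 3 members rose and 4 fell. With CB after RA it was 64.4%, with 32.1% higher and 32.3% lower, and 4 members rose and 2 fell. From day 6 to day 9 without treatment it was 46.9%, with 24% higher and 22.9% lower, and 4 members rose and 3 fell. After RA, between the same days, it was 58.8%, with 28.5% higher and 30.3% lower, and 1 member rose and 7 fell. No comparison moved all members in 1 direction.

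The libraries of the groups compared did not overlap for 6 members with RA at day 6 (57.2% of all genes) and for 6 with RA at day 9 (65.6%). They did not overlap for 7 members with CB and no RA (49.3%), 8 with RA before CB (56.2%) and 6 with CB after RA (69.3%). Between day 6 and day 9 they did not overlap for 7 members without treatment (50.9%) and for 8 after RA (65%). With shares this high over all genes, a call by itself says little about a member, so sizes, libraries and orders are given for each gene. The fit with the read-kind covariate left 2 of 6 calls for RA at day 6, 1 of 7 for RA at day 9 and 0 of 7 for CB without RA. Over all genes it left 819, 1045 and 119 calls, from 7571, 10105 and 6654. In the 4 other comparisons the member counts did not change with it.

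**Figure D1:**
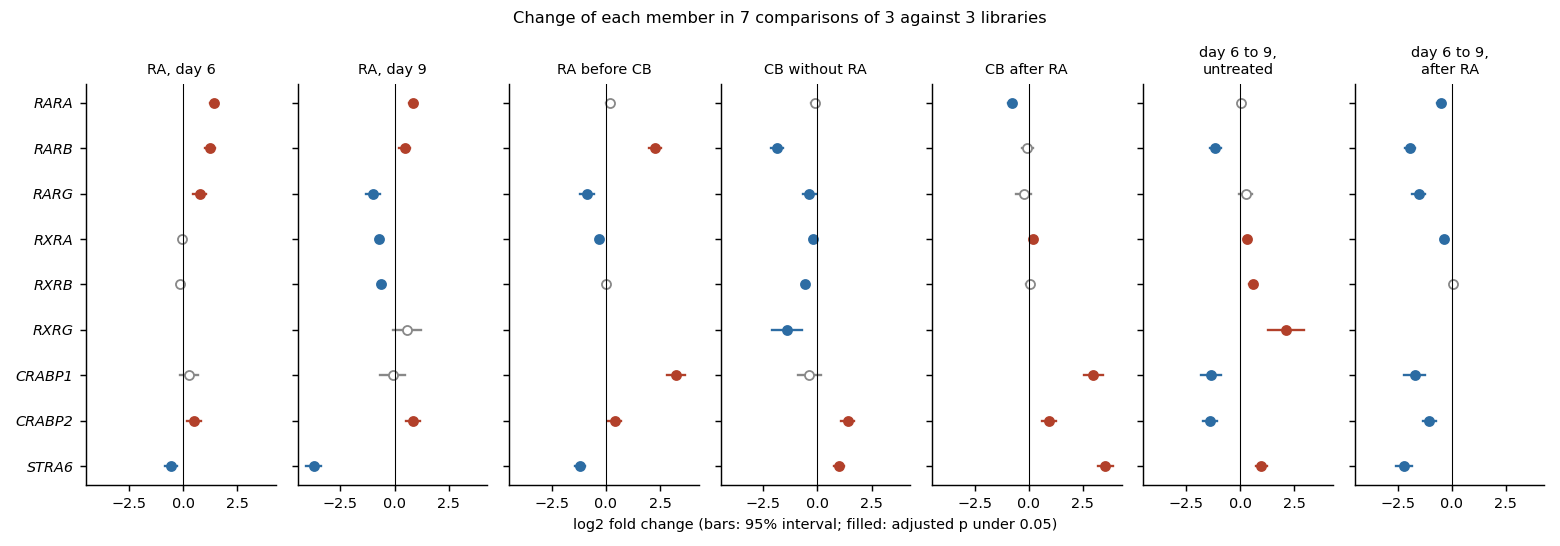
The log2 fold change of each gene in the 7 comparisons, with 95% intervals; filled points have an adjusted p under 0.05 (red higher, blue lower). RXRG is left blank in the 4 comparisons where a group had 3 or fewer reads. RARA and RARB rise with RA at day 6, while STRA6 lies furthest left with RA at day 9 (-3.73) and furthest right with CB after RA (3.54).

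RARA encodes RARα, the most widely expressed RAR. It was highest at day 6 after RA, at 93.5, 90.8 and 96.7 CPM, against 36.3, 32.0 and 36.5 CPM in untreated day 6 libraries. The ranges lie far apart, and the 2.67-fold rise was called (log2 1.42, SE 0.08, adjusted p = 1.7e-12, edgeR). At day 9, 3 days after the pulse ended, RARA stood at 66.4, 61.7 and 68.2 CPM with RA and at 35.7, 36.1 and 37.8 CPM without. That is a 1.80-fold rise (log2 0.84, adjusted p = 6.0e-09), again with no overlap.

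With CB the difference was smaller. RARA was 36.2, 36.8 and 40.4 CPM after RA then CB, 1.74-fold lower than after RA alone (adjusted p = 9.5e-09). Against CB without RA, at 35.9, 29.5 and 34.4 CPM, the libraries did not overlap, yet the difference of log2 0.17 was not called (interval 0.00 to 0.34, adjusted p = 0.101). On the TPM scale that difference was log2 0.27 and was called (adjusted p = 0.0203, limma). In order of level, CB, untreated day 6, untreated day 9, and RA then CB overlap their neighbours, and only the day 9 and day 6 RA groups stand clear above them. With the read-kind covariate, the day 6 change was log2 1.05 (adjusted p = 0.0512) and the day 9 change log2 0.37 (adjusted p = 0.650). In the untreated day 6 libraries RARA runs in the order of the read-kind shares, with 32.0 CPM at 0.677%, 36.3 CPM at 22.2% and 36.5 CPM at 39.3%. RXRA and CRABP2 run the same way, RARG runs in reverse, and the remaining members follow neither order. The covariate fit draws on these same libraries, so such an order is no separate evidence. The start of RARA as given in the count table lies within RARA-AS1, on the opposite strand in GENCODE. The GENCODE gene RARA itself begins further upstream. RARA-AS1 had 18 counts over the untreated day 6 libraries and 125 after RA, so the deposited counts of the 2 genes are uncertain where they overlap.

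RARB had the widest range of the RARs, 19.5-fold between the lowest and the highest group mean. It was lowest with CB and no RA, at 8.76, 8.20 and 9.27 CPM, and highest at day 6 after RA, at 176.1, 171.0 and 165.6 CPM. Untreated day 6 libraries stood at 70.1, 75.9 and 71.3 CPM, well above every day 9 group. RA thus came with a 2.36-fold higher level at day 6 (log2 1.24, SE 0.11, adjusted p = 2.5e-09), from a level that was already high without it. With the read-kind covariate this change was log2 1.43 and was still called (adjusted p = 0.0413).

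By day 9 the RARB difference was small without CB and large with it. After RA alone the libraries stood at 56.9, 42.6 and 36.6 CPM, and untreated ones at 28.0, 37.3 and 34.6 CPM. These ranges overlap, and the called rise of log2 0.47 (adjusted p = 0.00178) became log2 0.29 (adjusted p = 0.0190) without RA replicate 1. It was not called with the read-kind covariate (log2 0.71, adjusted p = 0.457). With CB the libraries were 44.7, 41.5 and 42.0 CPM after RA and 8.20 to 9.27 CPM without. The rise there was 4.85-fold (log2 2.28, SE 0.13, adjusted p = 4.4e-12) and lies within a single read kind. The mean after RA then CB differed from that after RA alone by log2 -0.07 (interval -0.31 to 0.17, adjusted p = 0.631). Without RA, CB libraries lay 3.68-fold below untreated ones (log2 -1.88, adjusted p = 2.0e-10), a call that was not kept with the covariate (log2 -1.63, adjusted p = 0.179). From day 6 to day 9, RARB fell 2.23-fold without treatment (adjusted p = 4.7e-08) and 3.81-fold after RA (adjusted p = 1.4e-12). In order, only RA then CB and RA alone overlap. In GENCODE the 3′ end of RARB overlaps TOP2B, on the opposite strand, by a few bases.

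RARG, which encodes RARγ, rose with RA at day 6 and fell with it at day 9. At day 6 it was 20.9, 21.2 and 26.8 CPM after RA and 13.4, 15.9 and 11.3 CPM untreated, a 1.70-fold rise (log2 0.77, SE 0.14, adjusted p = 9.7e-05). At day 9 it was 8.82, 7.31 and 7.78 CPM after RA and 16.3, 16.3 and 15.03 CPM untreated, a 2.02-fold fall (log2 -1.01, SE 0.15, adjusted p = 4.8e-06). Neither pair of groups overlaps. After RA then CB it was 7.46, 6.53 and 5.65 CPM, 1.84-fold below CB alone at 12.4, 10.6 and 13.6 CPM (adjusted p = 4.1e-05).

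The RARG groups at day 9 thus separate by RA, with every library that had the pulse at or under 8.82 CPM and every other one at or above 10.6 CPM. Between RA alone and RA then CB the libraries overlap, and the difference was not called (log2 -0.23, interval -0.58 to 0.11, adjusted p = 0.223). The fall with CB and no RA was small and depended on the fit (log2 -0.37, adjusted p = 0.0349 in edgeR, and log2 -0.37, adjusted p = 0.0572 in DESeq2). It was not called without untreated replicate 1 or 2 or without CB replicate 1 or 2 (adjusted p = 0.118, 0.0669, 0.0727 and 0.128). In the untreated day 6 libraries RARG runs in reverse to the read-kind shares, with 15.9 CPM at 0.677%, 13.4 CPM at 22.2% and 11.3 CPM at 39.3%. With the read-kind covariate, which draws on these libraries, the rise at day 6 was larger and stayed called (log2 1.75, adjusted p = 0.0442). The day 9 difference then had the other sign, with no call (log2 0.23, adjusted p = 0.885). The fall from day 6 to day 9 after RA, 2.88-fold, lies within 1 read kind (log2 -1.53, adjusted p = 6.9e-09).

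**Figure D2:**
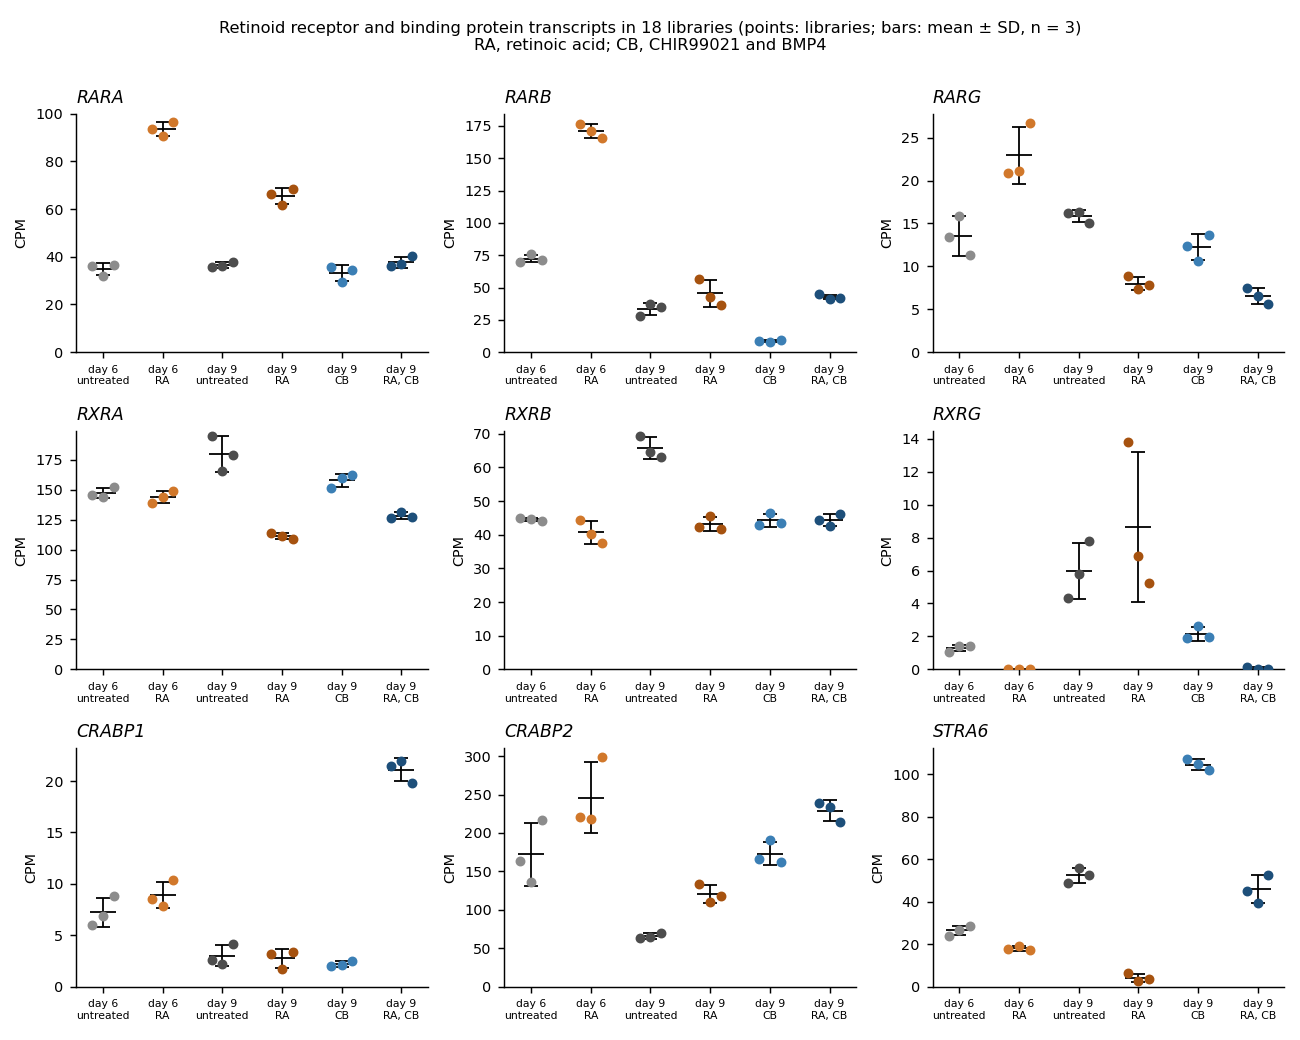
CPM of the 9 genes in each of 18 libraries (points), with the group mean and SD (bars), each axis starting at 0. RARA is raised in the 2 RA groups without CB, RARB is lowest with CB alone, CRABP1 is highest after RA then CB, and STRA6 is highest with CB alone and lowest at day 9 after RA.

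Levels of different genes can be compared per transcript length, in transcripts per 1000000 (TPM). Between groups this scale is shifted. The median log2 change of all tested genes on it was 0.19 with RA at day 6 and 0.28 with RA at day 9. With CB and no RA it was 0.23, while on the CPM scale these medians were 0.00, -0.02 and 0.00. Differences between the group sums below include this shift, and shares within a group do not. The RAR transcripts summed to 38.2 ± 1.80 TPM in untreated day 6 cells and 108 ± 3.44 TPM after RA. At day 9 the sums were 30.0 ± 1.53 TPM untreated, 57.2 ± 3.32 TPM after RA, 28.0 ± 2.17 TPM with CB and 36.7 ± 2.18 TPM after RA then CB. RARA was the largest part in every group, from 58.6% ± 3.66 in untreated day 6 cells to 81.3% ± 2.86 at day 9 after RA.

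The share held by RARB was 28.9% ± 1.60 in untreated day 6 cells and 27.6% ± 1.36 after RA, so the sum rose there with little shift in this share. With CB alone it was 4.95% ± 0.293, and after RA then CB 19.7% ± 1.10. The RARG share was 15.9% to 16.4% in the day 9 groups without RA and 5.42% to 6.997% in those with it. The TPM sums of the RXR genes varied less, between 76.7 and 93.9 TPM over the 6 groups. At day 6 after RA the RAR sum exceeded the RXR sum, at 108 against 82.2 TPM. In the other 5 groups it was the smaller one.

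**Figure D3:**
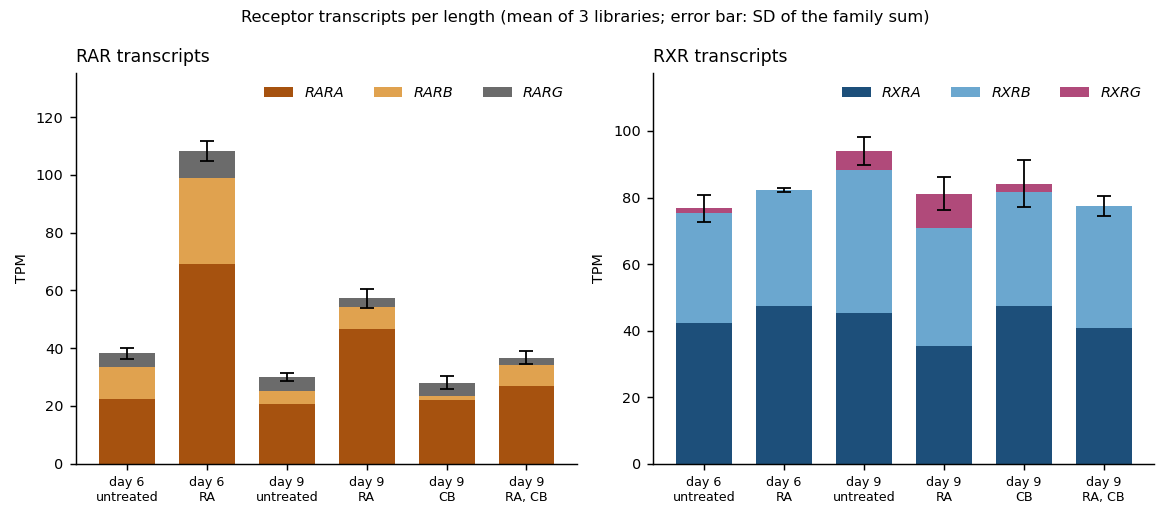
Stacked group means of TPM for the RAR genes (left) and the RXR genes (right), with the SD of the family sum. The RAR sum reaches 108 TPM at day 6 after RA and stays between 28.0 and 57.2 TPM in other groups, and RXRA and RXRB make up nearly all RXR transcripts except at day 9 after RA.

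RXRA and RXRB encode the widely expressed RXRs, the shared partners of many nuclear receptors. Both had narrow ranges, with the highest group mean 1.61-fold above the lowest. Neither changed with RA at day 6 beyond the spread of its libraries. RXRA was 139 to 149 CPM after RA and 144 to 152 CPM untreated (log2 -0.03, interval -0.17 to 0.10, adjusted p = 0.694). RXRB was 37.7 to 44.4 CPM after RA and 44.2 to 44.9 CPM untreated (log2 -0.13, interval -0.29 to 0.04, adjusted p = 0.196).

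Both stood apart in untreated day 9 cells. RXRA was 195, 165 and 179 CPM there and 114, 111 and 109 CPM after RA, a 1.62-fold fall (log2 -0.70, SE 0.07, adjusted p = 3.2e-09). RXRB was 69.3, 64.5 and 63.1 CPM there and 42.4, 45.5 and 41.7 CPM after RA, a 1.53-fold fall (log2 -0.61, SE 0.08, adjusted p = 2.8e-07). Neither pair of groups overlaps, and neither call was kept with the read-kind covariate, where RXRA had log2 -0.91 (adjusted p = 0.0643) and RXRB log2 -0.59 (adjusted p = 0.371).

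CB without RA came with lower RXRB, at 42.8, 46.4 and 43.6 CPM (log2 -0.58, adjusted p = 1.1e-06). That call was not kept with the read-kind covariate (log2 -0.55, adjusted p = 0.613). RXRB overlaps between neighbours in all groups other than untreated day 9. RA before CB left RXRB at the same level within its spread (log2 0.00, interval -0.15 to 0.16, adjusted p = 0.975). For RXRA, the fall with RA before CB was 1.23-fold, from 152, 159.9 and 162 to 126, 132 and 127 CPM (log2 -0.30, adjusted p = 5.6e-04). The fall of RXRA with CB and no RA was log2 -0.19 (adjusted p = 0.0198). It was not called without untreated day 9 replicate 1 (log2 -0.12, adjusted p = 0.171) or without CB replicate 1 (log2 -0.16, adjusted p = 0.0853), and on the TPM scale the difference was log2 0.06 (adjusted p = 0.511, limma). RXRB overlaps SLC39A7 on the opposite strand in GENCODE, and SLC39A7 had 4508 to 6863 counts per group.

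RXRG, the RXR with the most restricted expression, known from muscle and parts of the nervous system, had few reads. At day 6 it had 8, 9 and 13 counts in untreated libraries and 0, 0 and 0 after RA. Against a floor of 3 counts over the 3 libraries of the RA group, the untreated level was 12.3-fold higher, leaving out its own counting error. The 95% counting intervals were 0.878 to 1.86 CPM untreated and 0 to 0.130 CPM after RA. The fall was called in the main fit (adjusted p = 2.0e-04, edgeR) and not with the read-kind covariate (adjusted p = 0.156). At day 9 after RA alone it had 86, 66 and 47 counts, or 13.8, 6.89 and 5.22 CPM. That is 75.8-fold above the same floor, again leaving out the counting error of the higher group. The rise from day 6 to day 9 after RA was called (adjusted p = 6.3e-09, edgeR). The gene with no read after RA at day 6 was therefore highest in the same treatment at day 9.

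After RA then CB, RXRG had 3, 0 and 0 counts. Its 3 reads were all in replicate 1. CB alone gave 26, 24 and 38 counts, a ratio of 26.5 over it (95% interval 8.79 to 131, counting error only), and RA alone a ratio of 102 (interval 34.4 to 498). Untreated day 9 libraries stood at 4.34, 5.79 and 7.78 CPM, overlapping those after RA (log2 0.57, interval -0.07 to 1.21, adjusted p = 0.112). That difference was called without untreated replicate 3 (log2 0.79, adjusted p = 0.0462), without RA replicate 3 (log2 0.84, adjusted p = 0.0198), and on the TPM scale (log2 0.73, adjusted p = 0.0248, limma). It was log2 0.11 (adjusted p = 0.761) without RA replicate 1. Of the RXR TPM, RXRG held 12.5% ± 5.67 at day 9 after RA and 6.12% ± 1.87 in untreated day 9 cells. The group with most RXRG is also the one where the cardiac and mesenchyme marker sums were highest. Of 10 neural markers 4 passed the filter, and their sum was 36.7 to 89.2 CPM there. It was 59.9 to 63.6 CPM at day 6 after RA, where RXRG had no read, and 14.7 to 32.8 CPM in the other groups. The part of such cells in the RXRG level was not tested.

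CRABP1 was low in 5 groups and stood out after RA then CB. It was 21.4, 22.0 and 19.8 CPM there, against 1.95, 2.11 and 2.49 CPM with CB alone and 3.21, 1.67 and 3.33 CPM with RA alone. The rise was 9.50-fold over CB alone (log2 3.25, SE 0.20, adjusted p = 7.9e-12) and 7.86-fold over RA alone (log2 2.97, SE 0.21, adjusted p = 2.4e-11). Both comparisons lie within 1 read kind and no library overlaps.

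Neither treatment by itself moved CRABP1 past the test. RA gave log2 0.27 at day 6 (interval -0.15 to 0.68, adjusted p = 0.281) and log2 -0.09 at day 9 (interval -0.65 to 0.47, adjusted p = 0.780). CB without RA gave log2 -0.37 (interval -0.89 to 0.16, adjusted p = 0.259). From day 6 to day 9 it fell, from 7.23 ± 1.42 to 2.99 ± 1.02 CPM untreated (adjusted p = 4.8e-05) and from 8.89 ± 1.29 to 2.74 ± 0.926 CPM after RA (adjusted p = 1.0e-06). In order, CB, RA and untreated day 9 overlap, the day 6 groups overlap above them, and RA then CB is clear of the rest.

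CRABP2 was the more abundant binding protein transcript, with 128 to 623 TPM by group against 6.94 to 71.1 TPM for CRABP1. CRABP1 held 11.3% ± 0.237 of the TPM of the pair after RA then CB and 1.72% to 5.81% in the other groups. CRABP2 levels at day 9 were 63.6, 64.3 and 70.3 CPM untreated, 133, 109.5 and 118 CPM after RA, 167, 191 and 162 CPM with CB, and 239, 234 and 214 CPM after both. The 4 day 9 groups do not overlap.

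Each treatment came with a rise of CRABP2 at day 9. RA gave 1.82-fold without CB (log2 0.87, SE 0.15, adjusted p = 1.1e-04) and 1.33-fold with it (log2 0.41, adjusted p = 0.0291). CB gave 2.62-fold without RA (log2 1.39, adjusted p = 1.5e-06) and 1.91-fold after it (log2 0.93, adjusted p = 3.2e-05). The rise with RA before CB was not called without CB replicate 1 or 3 (adjusted p = 0.0890 and 0.104), without RA then CB replicate 1 or 2 (adjusted p = 0.0907 and 0.0768), or with no filter on low counts (adjusted p = 0.0646).

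At day 6 the CRABP2 libraries were 221, 218 and 299 CPM after RA and 164, 136 and 216 CPM untreated. They come close to each other, with 218 CPM in the lowest RA library and 216 CPM in the highest untreated one. The rise of log2 0.51 (adjusted p = 0.00828) was not called when only these 6 libraries were fitted (adjusted p = 0.103). The untreated day 6 libraries run in the order of their read-kind shares, with 136 CPM at 0.677%, 164 CPM at 22.2% and 216 CPM at 39.3%. The fit with the read-kind share draws on these same libraries. With that share as a covariate, CRABP2 had log2 -0.81 for RA at day 6 (adjusted p = 0.247), -0.83 for RA at day 9 (adjusted p = 0.331) and -0.31 for CB (adjusted p = 0.872), each of the other sign and not called. The calls within 1 read kind do not carry this difference. They are those for RA before CB, for CB after RA, and for the 2.04-fold fall from day 6 to day 9 after RA (adjusted p = 1.4e-05).

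STRA6 had the widest range of all members that were read in every group, 25.2-fold. It was highest with CB alone, at 107, 105 and 102 CPM, and lowest at day 9 after RA alone, at 6.26, 2.61 and 3.56 CPM. Every comparison gave a call for it. RA came with lower STRA6 in each of 3 settings.

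At day 6 the fall of STRA6 was small, from 24.0, 26.7 and 28.4 CPM to 17.4, 19.1 and 17.3 CPM (1.47-fold, log2 -0.55, SE 0.14, adjusted p = 0.00205). That change was not called on the TPM scale (log2 -0.33, adjusted p = 0.118, limma) or with the read-kind covariate (log2 -0.72, adjusted p = 0.475). At day 9 untreated libraries stood at 48.8, 55.8 and 52.4 CPM, and the fall after RA alone was 13.2-fold (log2 -3.73, SE 0.17, adjusted p = 1.9e-14). It was kept with the covariate (log2 -3.94, adjusted p = 6.3e-04), the only member call for RA at day 9 that was.

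With CB the fall of STRA6 was 2.29-fold, to 45.2, 39.4 and 52.6 CPM (log2 -1.20, SE 0.11, adjusted p = 1.2e-08). CB itself came with higher STRA6. The rise was 2.01-fold without RA (log2 1.01, adjusted p = 1.8e-07) and 11.6-fold after RA (log2 3.54, SE 0.17, adjusted p = 3.5e-14). With the read-kind covariate the rise without RA was not called (log2 0.79, adjusted p = 0.695). From day 6 to day 9 STRA6 rose 1.96-fold without treatment (adjusted p = 1.5e-06) and fell 4.60-fold after RA (adjusted p = 7.2e-10). In order, RA then CB and untreated day 9 overlap and all other neighbours are apart.

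The STRA6 start overlaps CCDC33, a gene on the opposite strand, in GENCODE. CCDC33 had 10 counts over the 3 libraries at day 9 after RA and 318 with CB, not scaled for depth. The strand setting of the counting is not given in the sources used here, and sharing of reads was not tested. The lowest STRA6 group is the one with the highest cardiac and mesenchyme marker sums, whose part was not tested. Between CB and RA then CB, where STRA6 also differed, the cardiac sum was 60.9 to 85.6 and 24.6 to 31.5 CPM. The mesenchyme sum was 1115 to 1382 and 342 to 386 CPM. Single markers were split there. Of 11 mesenchyme markers tested, 3 rose and 4 fell with RA before CB (median log2 -0.05, with 43.3% of all genes called). Of 9 cardiac ones, 0 rose and 2 fell (median log2 0.19).

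Whether the response to RA depended on CB was tested as a difference of log2 changes. It was called for 7 of 9 members (53.4% of all genes were called, 25.5% higher and 27.9% lower), higher in 5 and lower in 2. RARB had a larger rise with CB than without (log2 difference 1.81, SE 0.18, adjusted p = 2.1e-08), CRABP1 rose with CB and was not called without it (3.34, SE 0.34, adjusted p = 2.1e-08), and STRA6 fell less with CB (2.53, SE 0.21, adjusted p = 1.4e-09). RARA went the other way, with its rise smaller under CB (-0.68, SE 0.12, adjusted p = 3.7e-05). RARG, with falls of log2 -1.01 and -0.88, showed no called difference (0.13, interval -0.31 to 0.58, adjusted p = 0.622). With the read-kind covariate 2 of these calls were kept, CRABP1 (log2 4.28, adjusted p = 0.00904) and STRA6 (log2 2.75, adjusted p = 0.0110). RARB then had log2 1.57 (adjusted p = 0.0789).

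**Figure D4:**
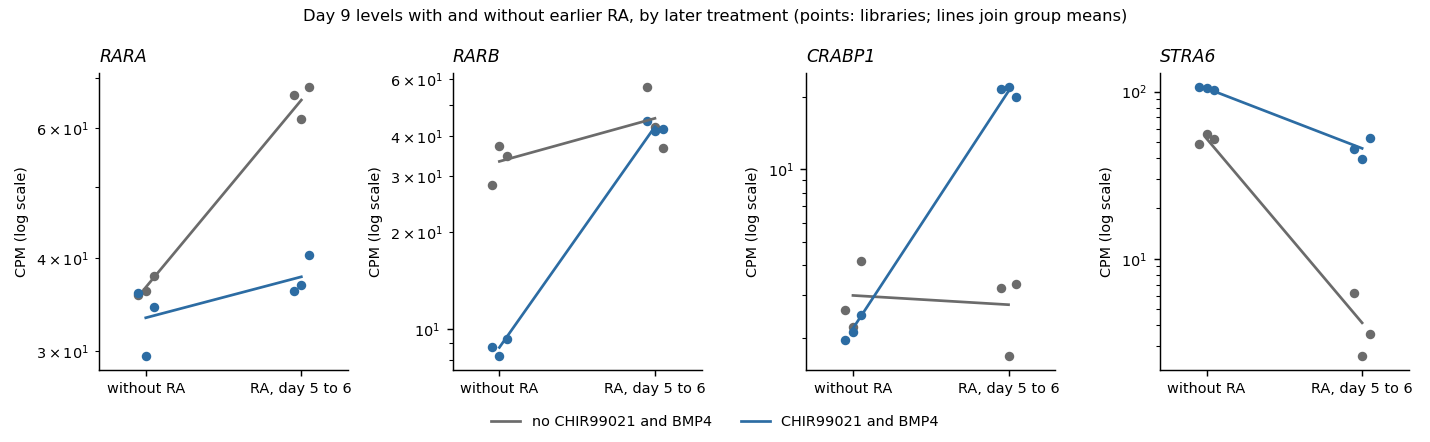
CPM at day 9 on a log axis for 4 genes, without RA and with the earlier RA pulse, in cells without CB (grey) and with CB (blue); points are libraries and lines join group means. The RARA rise is steeper in grey, the RARB rise is steeper in blue, CRABP1 libraries with and without RA separate in blue and overlap in grey, and the STRA6 fall is steeper in grey.

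The response to RA also differed between day 9 and day 6, with a call for 7 of 9 members, 1 higher and 6 lower (50.9% of all genes were called, 24.9% higher and 26% lower). The largest differences with reads in all groups were those of STRA6 (log2 -3.18, SE 0.22, adjusted p = 1.1e-10) and RARG (log2 -1.78, SE 0.21, adjusted p = 2.5e-07). RARA and RARB had smaller rises at day 9 (log2 -0.57, adjusted p = 2.8e-04, and log2 -0.77, adjusted p = 3.8e-04). These 4 calls were kept with the read-kind covariate. CRABP1 and CRABP2 gave no call, though CRABP2 was called without untreated day 6 replicate 2 (log2 0.50, adjusted p = 0.0301) or without day 6 RA replicate 3 (log2 0.52, adjusted p = 0.0287).

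Genes with the most similar pattern over the 18 libraries were found by the root mean square difference of centred log2 CPM, over genes of at least 5 CPM. A small distance describes these libraries and does not separate shared regulation from shared treatment groups. The nearest gene to RARA was LAPTM4A, a lysosomal membrane protein gene (distance 0.18), and the nearest to RARB was NIBAN1 (0.46), which fell to 3.20 CPM with CB and stood at 19.6 CPM after RA then CB. The nearest to CRABP1 was LRAT (0.62), which encodes the enzyme that esterifies retinol for storage. LRAT was 12.8 ± 0.138 CPM after RA then CB, against 1.74 to 7.46 CPM by group elsewhere. For STRA6 the nearest were PCDHGC4 (0.48) and GLI3 (0.53), a transcription factor of Hedgehog signalling, with 24.0 CPM after RA and 390.2 CPM with CB. The nearest to RXRG was FIBIN, at 0.92. The distance is not scaled by how much a gene varies, and RXRG varied most, with a spread of 2.14 around its own mean. Among the members, RXRA and RXRB had the smallest distance (0.20). Their own spreads were only 0.22 and 0.23, so that distance mostly reflects that both varied little.

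Other genes of retinoid transport and metabolism were given as a list of 30 beside the members, of which 24 were tested. With RA at day 6, 9 rose and 5 fell (median log2 0.20, against 0.00 over all tested genes, of which 48.7% were called). DHRS3, a reductase that returns retinaldehyde to retinol, rose 14.5-fold to 205 ± 3.18 CPM (adjusted p = 4.0e-18), and CYP26B1, a RA-degrading enzyme, rose from 0.258 to 12.4 CPM (adjusted p = 7.7e-10). CYP26C1, of the same enzyme family, fell from 180.6 ± 102 to 0.509 ± 0.0871 CPM (adjusted p = 8.3e-08).

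With RA at day 9, 9 rose and 6 fell (median log2 0.17, against -0.02, with 65.1% called). CYP26A1, the main RA-degrading enzyme, was 2.43 ± 1.01 CPM after RA and 125 ± 28.3 CPM untreated (adjusted p = 1.2e-10). At day 6 its order was the reverse, with 321 ± 37.6 CPM after RA and 68.2 ± 14.6 CPM untreated. From day 6 to day 9 after RA it fell 138-fold (adjusted p = 8.1e-12, edgeR). TTR, which binds the retinol binding protein in serum, rose to 146 ± 39.0 CPM (adjusted p = 1.6e-07). With RA before CB, 8 rose and 5 fell (median log2 0.05, against -0.01, with 43.3% called). DHRS3 rose 10.6-fold (adjusted p = 3.0e-16), LRAT 5.91-fold (adjusted p = 6.2e-09), and CYP26A1 fell to 0.711 ± 0.343 CPM from 122 ± 12.2 (adjusted p = 8.4e-11). With CB after RA, 6 rose and 10 fell (median log2 -0.49, against 0.02, with 64.4% called), and with CB and no RA, 5 rose and 6 fell (median log2 0.03, against 0.00, with 42.8% called).

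A list of 20 genes known to be induced by RA had 16 tested. Some of its genes, DHRS3 and NRIP1 among them, also stand in another of these lists. At day 6, 15 rose and 1 fell (median log2 4.29, with 48.7% of all genes called), at day 9, 13 rose and 1 fell (median log2 3.31, with 65.1%), and before CB, 9 rose and 2 fell (median log2 1.66, with 43.3%). From day 6 to day 9 after RA, 2 of the 16 rose and 12 fell (median log2 -1.74, with 58.8% of all genes called), beside 1 member that rose and 7 that fell.

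The 20 corepressors and coactivators of nuclear receptors were all tested. With RA at day 6, 6 rose and 8 fell (48.7% of all genes were called), at day 9, 7 rose and 4 fell (65.1%), before CB, 5 rose and 4 fell (43.3%), and with CB after RA, 8 rose and 8 fell (64.4%). The medians were log2 -0.10, 0.08, 0.13 and -0.05, against 0.00, -0.02, -0.01 and 0.02 over all tested genes. NRIP1, a ligand-dependent corepressor that is itself a known RA target, rose 2.02-fold at day 6 (145 ± 10.1 against 72.5 ± 8.29 CPM, adjusted p = 2.4e-09) and 1.58-fold before CB (adjusted p = 1.2e-06). The coactivator NCOA1 fell in all 3 RA comparisons, by log2 -0.79, -0.49 and -0.55 (adjusted p = 1.7e-07, 3.3e-05 and 2.4e-05). Of 13 other partners of RXR, 11 were tested. THRB, a thyroid hormone receptor, fell 24.8-fold with RA at day 6 (20.5 ± 2.88 to 0.843 ± 0.172 CPM, adjusted p = 8.2e-14). It also fell at day 9 (to 2.08 ± 0.137 CPM, adjusted p = 9.0e-13) and before CB (to 0.212 ± 0.166 CPM, adjusted p = 1.4e-15). In all, 3 of the 11 rose and 3 fell with RA at day 6 (48.7% of all genes were called), 2 rose and 4 fell at day 9 (65.1%), and 3 rose and 3 fell before CB (43.3%). The medians were log2 0.10, -0.32 and -0.04.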

How the data were processed

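RNA-seq was measured in 18 libraries of H1-derived foregut endoderm in 6 labelled groups of 3, made with a stranded TruSeq mRNA kit per the labels' protocols. The authors deposited raw counts per gene and TPM per gene. STAR 2.7.9 and GRCh38 are named in the submitters' processing notes. No counting tool, annotation or strand option is given in the sources used here. Overlapping genes are therefore uncertain. For each gene, deposited TPM and deposited counts differed by a constant length and a library factor. Rows without a symbol (36, holding 0.001% of counts) were left out.

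Tests on the counts used edgeR 4.0.16 in R 4.3.3 (filterByExpr with a minimum count of 10, trimmed mean of M-values, robust quasi-likelihood, 1 mean per group over 18 libraries, Benjamini-Hochberg over 15531 genes). The method was tested on simulated data. Median biological variation was 8.52%. Alternatives were RLE and upper quartile factors, no filter, a filter at 1 CPM, DESeq2 1.42.0, limma 3.58.1 on log2(TPM + 0.5), no robust dispersion, only the groups compared, a replicate block, the read-kind covariate, and each library left out. For a group without reads, the pooled level of the other group was divided by a floor of 3 counts over the group. That ratio leaves out the counting error of the higher group. Counting intervals are at 95%. For the read-kind share, the level of each of the 63 set-apart genes was divided by its mean over the libraries where it was higher. These ratios were averaged over the 32 genes higher in treated libraries and over the 31 higher in untreated ones. The share was the first average divided by the sum of both averages.

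The 9 members and the lists of other genes were chosen with earlier results of these data known. Named genes were the members, the 3 genes nearest each in pattern (some of which are given), and up to 4 called genes per list and comparison with the largest change at 5 CPM or more (some of which are given).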

Additional observations from a re-analysis of the deposited data

Results flagged for a closer look

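The response of a member to RA differed between conditions in 14 tests of the difference itself (edgeR quasi-likelihood, Benjamini-Hochberg adjusted p under 0.05). With CB against without, the log2 difference was -0.68 for RARA, 1.81 for RARB, 0.40 for RXRA, 0.61 for RXRB, -5.14 for RXRG, 3.34 for CRABP1 and 2.53 for STRA6. At day 9 against day 6 it was -0.57 for RARA, -0.77 for RARB, -1.78 for RARG, -0.66 for RXRA, -0.48 for RXRB, 7.38 for RXRG and -3.18 for STRA6. The RXRG values rest on groups with 0 to 3 reads and depend on the prior count, so their size is not a measured fold. The share of all genes with such a call was 53.4% and 50.9%. No member was tested for a library standing apart, since every group held 3 libraries.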

How the results depend on the processing

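With RLE or upper quartile factors, the 1 CPM filter, no robust dispersion and the replicate block, all 81 member calls stayed the same. The replicate numbers do not pair the libraries (correlations of same-numbered deviations from -0.08 to 0.23), and the fit with the replicate block called 6, 7, 7, 7, 6, 7 and 8 members in the 7 comparisons and 7 and 7 in the 2 interactions, as without it. With the read-kind covariate the member counts became 2 (RA at day 6), 1 (RA at day 9), 0 (CB without RA) and 2 (RA by CB). Leaving out 1 library gave 6 for RA at day 6, 7 to 8 for RA at day 9, 5 to 7 for CB without RA, 6 to 7 for RA before CB, 6 for CB after RA, 7 and 8 from day 6 to 9 untreated and after RA, 7 for RA by CB, and 7 to 8 for RA by day. Called changes that had the other sign with the covariate were CRABP2 (-0.81, -0.83 and -0.31 for RA at day 6, RA at day 9 and CB) and RARG (0.23 for RA at day 9, 0.87 for CB), none called (adjusted p = 0.247, 0.331, 0.872, 0.885 and 0.667). Uncalled ones were CRABP1 (-0.46, RA at day 6), RARG (-0.00089, day 6 to 9 untreated, and -1.10, RA by CB) and CRABP2 (1.24, RA by CB, and -0.02, RA by day). The covariate left 1053 calls over all genes for RA by CB, from 8300. The cause of these changes was not tested. On the TPM scale RXRA with CB was 0.0612 (adjusted p = 0.511). That scale moved the median log2 change of all genes to 0.19 (RA at day 6), 0.28 (RA at day 9), 0.23 (CB without RA), -0.16 (day 9 against 6, untreated) and -0.21 (RA by CB). The share of calls that were higher was then 74.8%, 73.2%, 79.7%, 28.3% and 29.5%, from 51.9%, 50.0%, 49.1%, 51.3% and 47.8%, and for RA before CB 62.0% from 48.9% and for RA by day 58.9% from 48.8%. Upper quartile factors moved it to between -0.12 and 0.10. DESeq2 and the TPM scale called CRABP2 for RA by CB (-0.48, adjusted p = 0.0317, and -0.69, adjusted p = 0.0166), as did the fit of only those groups (-0.47, adjusted p = 0.00368), where the main test did not (-0.46, adjusted p = 0.0763). RXRA was not called on the TPM scale for RA by CB or from day 6 to 9 untreated (adjusted p = 0.259 and 0.277). Of the log2 changes under an alternative, 1332 kept sign and call, 36 lost and 9 gained a call, 6 called ones changed sign, and 20 changed sign without a call. Depth limits what can be read of RXRG, with 0 to 3 counts per library in 2 groups.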
